A study of Mus musculus with 2 samples.

Results

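Cycling T cells in the tumours of lenvatinib-resistant mice with hepatocellular carcinoma (HCC) were examined by single-cell RNA sequencing of sorted live CD45+ cells, CD45 being the surface protein of cells of blood origin. The cells were chosen by their own measured values. A barcode was kept when it held at most 6000 detected genes and at most 25% of its unique molecular identifiers (UMIs, each marking a captured RNA molecule) in mitochondrial genes. A T cell held at least 2 UMIs summed over Cd3d, Cd3e and Cd3g, which encode the signalling chains of the T cell receptor, and no UMI of the B cell gene Cd79a or the macrophage gene Csf1r. A cycling T cell was a T cell in which at least 4 of 10 genes of G2 and mitosis were detected, namely Mki67, Top2a, Birc5, Ccna2, Cdk1, Ccnb1, Ccnb2, Cenpf, Tpx2 and Nusap1. The rule found 721 cells among 12289 T cells and 25814 cells in all, of which 606 came from the lenvatinib library and 115 from the library of lenvatinib with palbociclib (combo).

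Both groups were male wild-type C57BL/6 J mice, taken at 6 to 8 weeks of age for the tumour model. Their livers carried Trp53KO/MYCOE tumours. Plasmids for human MYC and for a guide against Trp53, together with sleeping beauty transposase, had been delivered by hydrodynamic tail vein injection, a route that carries DNA mainly into hepatocytes rather than into blood cells. Lenvatinib, an inhibitor of VEGF and FGF receptor kinases, was started at 30 mg/kg 12 days after the plasmids and given for 25 days to obtain resistant tumours. The lenvatinib group then received lenvatinib at 30 mg/kg, and the combo group received lenvatinib at 30 mg/kg with palbociclib at 100 mg/kg. There was 1 library per condition and the number of mice behind each is not given in the sources used here, so treatment and library cannot be told apart and no difference between conditions was tested. Every interval below is an exact 95% interval that covers counting error only.

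A dividing cell passes from G1 through S phase, in which DNA is copied, to G2 and mitosis. CDK4 and CDK6, bound to D-type cyclins, phosphorylate the retinoblastoma protein RB and so free the E2F factors that switch on the genes of S phase, and palbociclib inhibits both kinases. Genes of G2 and mitosis come on later, many of them through promoter elements called CHR and CCAAT. In tumours, T cells that meet antigen divide, and CD8 T cells are the usual source of cytotoxic granules, whereas Foxp3 marks regulatory T cells and Trdc the γδ lineage.

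The promoters of the genes that define the rule were read because these genes rise together in a dividing cell. RefSeq sequence of build GRCm38.p6 was at hand for 8 of the 10, and the 250 bases before each start site were searched on both strands for CHR (TTTGAA or its complement TTCAAA) and for CCAAT (or ATTGG). Both were found in 4 of the 8 (50%), against 5.73% of 27025 promoters, and CCAAT was found in 6 (75%) against 34.5%. The last 100 bases before the start site are shown for the DNA topoisomerase gene Top2a (chr11:99024190-99024289, minus strand), the mitotic cyclin gene Ccnb2 (chr9:70421555-70421654, minus strand), the kinetochore gene Cenpf (chr1:189688087-189688186, minus strand) and the survivin gene Birc5 (chr11:117849137-117849236, plus strand), with both kinds of element in capitals.
Top2a: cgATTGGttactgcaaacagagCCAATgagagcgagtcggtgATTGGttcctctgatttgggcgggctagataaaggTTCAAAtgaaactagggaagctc
Ccnb2: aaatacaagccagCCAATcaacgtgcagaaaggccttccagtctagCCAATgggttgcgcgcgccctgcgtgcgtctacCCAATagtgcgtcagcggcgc
Cenpf: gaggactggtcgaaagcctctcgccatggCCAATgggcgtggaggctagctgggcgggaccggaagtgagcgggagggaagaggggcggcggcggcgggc
Birc5: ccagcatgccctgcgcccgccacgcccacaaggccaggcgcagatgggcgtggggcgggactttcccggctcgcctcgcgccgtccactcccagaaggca
The Top2a stretch holds 3 CCAAT elements ahead of a CHR, the Ccnb2 stretch 3 CCAAT elements, the Cenpf stretch 1, and the Birc5 stretch none of these letters. Among 39 further mitosis genes, CHR stood in 35.9% and CCAAT in 76.9% of the promoters, while among 28 genes of S phase and DNA replication CHR stood in 10.7% and CCAAT in 64.3%; CHR was found in 16.3% of all promoters.

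The libraries held 14509 (lenvatinib) and 11989 (combo) barcodes with 98107503 and 93583402 UMIs, and 308 and 376 barcodes were removed by the filter. Both libraries shared 49 barcode sequences, none of them in a cycling T cell. In cycling T cells the median was 13439.5 UMIs (lenvatinib, range 971 to 48884) and 16468 UMIs (combo, range 2941 to 43035), 2.24 and 2.95 times the median of the other T cells. A UMI of a T cell receptor constant gene, of the α, β, γ or δ chain, was found in 602 of the 606 (99.3%) and in 109 of the 115 (94.8%). The share of NK or B cells with such a UMI was not read. The CD3 UMIs had a median of 18 and 25 per cell, and 45 and 8 cells stood at exactly the 2 UMIs that the rule asks for. The CD3 genes are part of the rule and do not check the label, and NK receptor RNA was also found in some of these cells, as given below.

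Neutrophil RNA set 14 of the cells apart. S100a8 and S100a9, which encode the calprotectin chains that fill neutrophils, made up 8.84% to 27.0% of the UMIs of 4 lenvatinib cells and 13.7% to 43.3% of those of 10 combo cells. In the other cycling T cells these genes took at most 0.635% (lenvatinib) and 0.267% (combo), with a gap on both sides of the line at 5% that was drawn after the values were seen. In 3 of the 10 combo cells and in none of the 4 lenvatinib cells the T cell receptor UMI was missing. The 14 cells gave 1.29% of the UMIs of lenvatinib and 14.1% of those of combo, so gene levels are given with and without them, and 602 and 105 cells (707) were left.

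**Figure D1:**
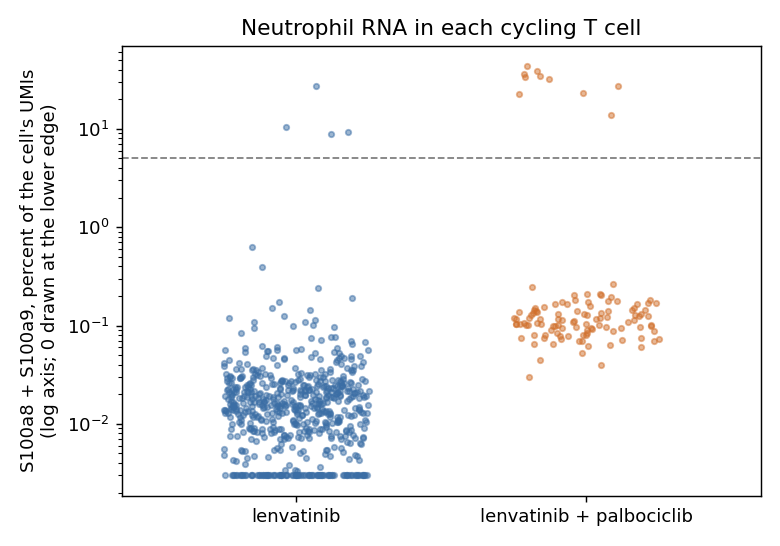
Share of each cycling T cell's UMIs that came from S100a8 and S100a9 (log axis), 1 point per cell, by library; the dashed line marks 5% and points at the lower edge are at 0. The 4 lenvatinib and 10 combo cells above the line start at 8.84% and 13.7%, while the rest stay at or under 0.635%.

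Even in the 707 cells left the level of neutrophil RNA differed between the libraries. All 14 genes of the neutrophil list were detected in both libraries. Their summed level in the 707 cells was 268.5 CPM in lenvatinib and 1512 CPM in combo, CPM being the usual unit of UMIs scaled to a common library total. In the T cells that were not cycling it was 1586 and 21490 CPM, or 506.7 and 2121 CPM without cells past the same line of 5%, so it was higher in combo in cycling and other T cells alike. Scrublet, which scores doublets from simulated pairs of cells, called 33 of the 606 and 2 of the 115. The part of neutrophil RNA and doublets in the differences below was not tested.

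Cycling T cells were a smaller share of the T cells in combo. They made up 606 of 7085 T cells in lenvatinib (8.55%, interval 7.91 to 9.23) and 115 of 5204 in combo (2.21%, 1.83 to 2.65), and the intervals did not overlap. Set against each other, combo over lenvatinib gave 0.258, and the ends of both intervals bounded this ratio by 0.198 and 0.335 (ratios of other shares are bounded in the same way). Of all cells in the CD45+ sort, whose gate can set such a share, they were 4.27% and 0.990%. Without the cells with neutrophil RNA the shares of T cells were 8.53% and 2.08%, a ratio of 0.244.

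Combo cells were deeper among cycling T cells and slightly shallower among other T cells, so the share was also read at a fixed depth. With each T cell thinned to 2000 UMIs, 5.18% and 1.03% still showed at least 4 of the 10 genes (ratio 0.198). That left out 390 and 144 T cells with fewer UMIs. Thinned to 4000 UMIs, the shares were 8.46% and 1.93% (ratio 0.229).

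The smaller share in combo was seen at each count of rule genes from 1 to 10. T cells without any of the 10 genes were 57.9% of T cells in lenvatinib and 78.3% in combo. Just outside the rule, with 3 genes, stood 129 (1.82%) and 35 (0.673%) T cells, and just inside it, with 4 genes, stood 68 (0.960%) and 16 (0.307%). The cells with all 10 genes were 164 (2.31%) and 24 (0.461%), a ratio of 0.199 (0.110 to 0.347). Within the cycling T cells, at least 7 of the 10 genes were detected in 69.1% (65.3 to 72.8) of lenvatinib and 62.6% (53.1 to 71.5) of combo cells, which overlapped.

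**Figure D2:**
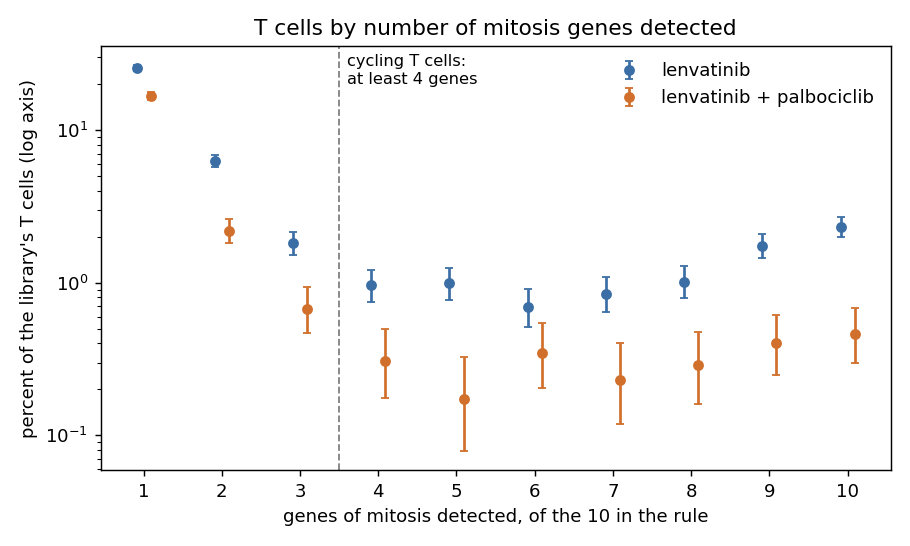
Percent of each library's T cells (log axis) by the number of the 10 rule genes detected, with exact 95% intervals for counting error; the dashed line is the threshold of 4 genes. The combo points lie below the lenvatinib points at each number shown, from 16.7% against 25.5% at 1 gene to 0.461% against 2.31% at 10 genes.

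Most cycling T cells with a lineage gene were CD8 T cells. Subsets were set by UMIs of Foxp3, Trdc, Cd8b1 (the CD8 beta chain) and Cd4: Foxp3+ cells lack Cd8b1, Trdc+ cells lack Cd8b1, Cd4 and Foxp3, and Cd8b1+ cells lack Cd4. Cd8b1+ cells may still hold Foxp3 or Trdc, and Foxp3+ and Cd4+ cells may hold Trdc. Cd8b1+ cells were 364 of 606 (60.1%, 56.0 to 64.0) in lenvatinib and 62 of 115 (53.9%, 44.4 to 63.3) in combo. Trdc+ cells, named by this gene alone, were 58 (9.57%) and 5 (4.35%), and Cd4+ cells without Foxp3 or Cd8b1 were 30 (4.95%) and 13 (11.3%). Foxp3+ cells were 15 (2.48%) and 2 (1.74%), cells with both Cd8b1 and Cd4 were 16 (2.64%) and 4 (3.48%), and none of the 4 genes was seen in 123 (20.3%) and 29 (25.2%). Between the libraries the intervals of all 6 subsets overlapped. Whatever the subset, a Trdc UMI was held by 97 (16.0%) and 12 (10.4%) of the cycling T cells. A Foxp3 UMI was held by 28 (4.62%) and 3 (2.61%).

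The makeup was then set beside that of the T cells that were not cycling. Foxp3+ cells were 2.48% (1.39 to 4.05) of cycling and 6.13% (5.56 to 6.74) of other T cells there, and 1.74% and 1.08% in combo. After thinning to 2000 UMIs, the shares in lenvatinib were 0.843% (5 of 593 cells) against 4.44%. Cd8b1+ cells were 47.2% and 49.4% of the other T cells, below the cycling T cells in both libraries. After thinning they were 37.6% of cycling against 32.5% of other T cells in lenvatinib and 32.2% against 38.0% in combo, so no order held for combo.

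B cells, which should lack these 4 genes, were read as a measure of background. They held at least 2 Cd79a UMIs and no CD3 or Csf1r UMI. This gate leaves out B cells with CD3 RNA and can lower the background. Whether the background came from free RNA or from doublets was not tested. Of B cells with a median of 3327 (lenvatinib) and 3446 (combo) UMIs, 4.75% and 2.69% held a Cd8b1 UMI, 1.73% and 0.960% a Cd4 UMI, 1.30% and 0.192% a Foxp3 UMI and 2.38% and 0.768% a Trdc UMI. Cycling T cells, at 2000 UMIs each, held Cd8b1 in 37.8% and 33.0%, well above that background. Cd4 was held by 2.19% and 7.83%, Trdc by 6.75% and 3.48%, and Foxp3 by 1.01% and 0.870%. For Foxp3 in lenvatinib the share was below that of B cells at 2000 UMIs and above it at 4000 UMIs, where 13 of 563 cells (2.31%) held the gene.

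The cycling share was lower in combo in the Cd8b1+, Trdc+ and Cd4+ subsets, and could not be told in the Foxp3+ subset. Of Cd8b1+ T cells, 364 of 3424 (10.6%, 9.62 to 11.7) were cycling in lenvatinib and 62 of 2578 (2.40%, 1.85 to 3.07) in combo, a ratio of 0.226 (0.158 to 0.319). Of Trdc+ T cells, 58 of 640 (9.06%) and 5 of 353 (1.42%) were cycling, a ratio of 0.156 (0.0399 to 0.471). Of Cd4+ T cells, 30 of 462 (6.49%) and 13 of 572 (2.27%) were cycling, a ratio of 0.350 (0.133 to 0.872). These ranges all lay below 1.

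In the Foxp3+ subset 15 of 412 cells (3.64%, 2.05 to 5.93) and 2 of 57 cells (3.51%, 0.428 to 12.1) were cycling. The ratio of 0.964 had a range of 0.0721 to 5.90, which holds the ratio of each other subset. With a gate of at least 2 rule genes, 11.4% and 5.26% of Foxp3+ cells passed, a ratio of 0.461 (0.0739 to 1.72). T cells with none of the 4 genes were cycling in 123 of 2029 (6.06%) and 29 of 1545 (1.88%), a ratio of 0.310 (0.175 to 0.530), and those with both Cd8b1 and Cd4 in 16 of 118 (13.6%) and 4 of 99 (4.04%), a ratio of 0.298 (0.0527 to 1.26).

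**Figure D3:**
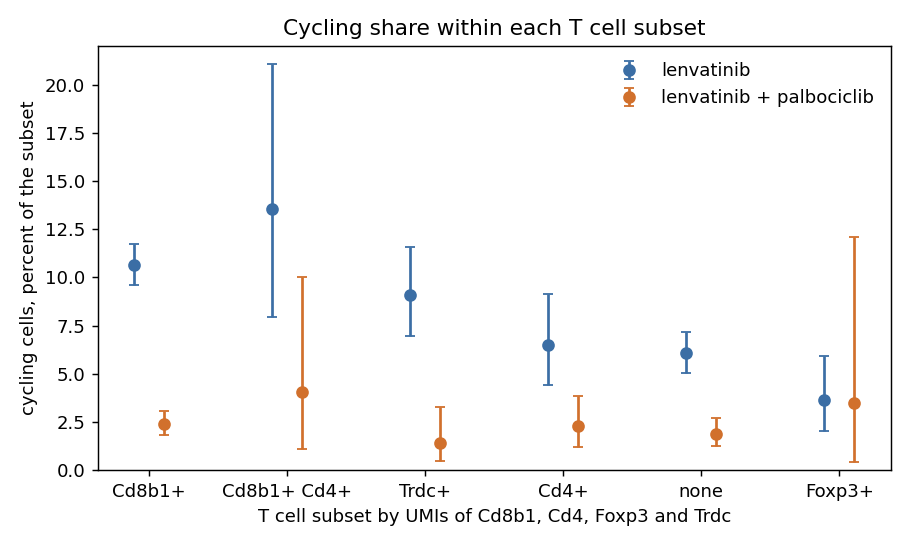
Percent of each T cell subset that met the cycling rule, by library, with exact 95% intervals for counting error. The intervals of lenvatinib and combo are apart for Cd8b1+, Trdc+, Cd4+ and none, and overlap for Cd8b1+ Cd4+ and for Foxp3+, where 2 of 57 combo cells were cycling.

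Beside the T cells, the same 10 genes were read in other cells of the sort, by gates drawn after the values were seen. NK cells, taken as cells with a UMI of the NK receptor gene Ncr1 and none of the CD3 genes, met the cycling gate in 94 of 1817 (5.17%) and 25 of 801 (3.12%), a ratio of 0.603 (0.323 to 1.09). B cells met it in 4.54% and 0.768%, a ratio of 0.169 (0.0306 to 0.691). Cells with at least 2 Csf1r UMIs met it in 4.03% and 3.13%, a ratio of 0.776 (0.210 to 3.37), and cells with high neutrophil RNA and no CD3 UMI in 5.44% and 1.94%, a ratio of 0.357 (0.131 to 0.983). The range of each of these overlapped that of T cells.

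Ncr1 was also read within the cycling T cells. A UMI of it was held by 139 of 606 (22.9%) and 20 of 115 (17.4%), against 13.6% and 7.27% of other T cells and 8.21% and 1.73% of B cells. It was held by 27 of the 58 Trdc+ cycling cells of lenvatinib (46.6%) and by 47 of the 123 cells without a lineage gene (38.2%), but by 53 of the 364 Cd8b1+ cells (14.6%). Cycling T cells without an Ncr1 UMI were 7.70% and 1.97% of the T cells without one, a ratio of 0.256.

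The subsets differed in what else their cycling cells expressed, given here in CPM over the cells without high neutrophil RNA. Klre1, an NK receptor gene, stood at 526.7 CPM in Trdc+ cells, 431.9 CPM in cells without a lineage gene and 129.8 CPM in Cd8b1+ cells of lenvatinib, and at 481.4, 287.4 and 132.0 CPM in those of combo. Ncr1 stood at 161.7, 151.5 and 36.9 CPM in lenvatinib and at 340.7, 92.1 and 6.79 CPM in combo, so both NK genes were higher in Trdc+ cells and cells without a lineage gene than in Cd8b1+ cells. Gzma, a granzyme of cytotoxic granules, stood at 2373, 1348 and 653 CPM in lenvatinib and at 666.6, 105.5 and 461.8 CPM in combo, where the cells without a lineage gene were thus below the Cd8b1+ cells. Foxp3+ cycling cells of lenvatinib (14 cells) held Ikzf2, a transcription factor of regulatory T cells, at 1348 CPM and the costimulatory receptor gene Tnfrsf4 at 534.8 CPM, with 623.9 and 170.2 CPM in the 2 cells of combo. In Cd8b1+ cells of lenvatinib these genes were at 131.3 and 11.2 CPM. Gzmk, a granzyme of memory-like CD8 T cells, was at 110.3 CPM in Cd8b1+ cycling cells of lenvatinib and 164 CPM in those of combo, whereas 2.14 and 0 CPM were found in Trdc+ cells.

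Outside the lists of cell division, the genes that stood furthest above the other T cells were those of histones and chromosome segregation. They lie close to what the rule used, so they are a description. Hist1h1b, a linker histone gene made in S phase, was at 535.5 CPM in cycling and 9.77 CPM in other T cells of lenvatinib (54.8-fold), and at 543.6 and 8.84 CPM in combo (61.5-fold). Hist1h2ae was at 660.6 against 14.98 CPM and at 659.7 against 18.65 CPM. Hist1h3c, Hist1h2ab, the cohesin acetyltransferase gene Esco2, the spindle gene Ska1, Shcbp1, the kinesin gene Kif15, the centromere protector gene Sgo2a and the abscission gene Cep55 completed the 10, at 34.4-fold or more in lenvatinib and 43.3-fold or more in combo.

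The genes that were lowest in cycling against other T cells included genes of resting T cells. Il7r, the receptor chain for the survival cytokine IL-7, was at 85.3 against 251.6 CPM in lenvatinib (ratio 0.339) and at 102.3 against 392.8 CPM in combo (0.260). Bcl2, which blocks cell death, was at 259.0 against 601.1 CPM and at 250.1 against 625.3 CPM. Samhd1, which breaks down the building blocks of DNA, was at 0.452 and 0.417. For these genes the libraries gave similar ratios.

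S phase was read with genes that the rule does not use. At least 4 of Mcm3, Mcm5, Mcm6, Pcna, Tyms, Rrm2, Gins2, Uhrf1, Clspn and Dtl were detected in 495 of 606 cycling T cells (81.7%, 78.4 to 84.7) of lenvatinib and 100 of 115 (87.0%, 79.4 to 92.5) of combo. Outside the cycling T cells, 788 of 6479 T cells (12.2%) of lenvatinib and 358 of 5089 (7.03%) of combo met this S phase gate, a ratio of 0.578 (0.489 to 0.683). At 2000 UMIs per cell the latter shares were 1.66% and 0.667%, a ratio of 0.403 (0.229 to 0.693). Over all T cells the gate was met by 18.1% and 8.80%, a ratio of 0.486.

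Along the rule the balance of S phase and mitosis RNA shifted in the same way in both libraries. Summed over 33 genes of S phase and DNA replication, the level was 5231 CPM in lenvatinib cells with 4 to 6 rule genes, 6217 CPM with 7 to 9 and 3981 CPM with 10. In combo these sums were 4866, 6598 and 4740 CPM. Over 46 further mitosis genes it was 5299, 11320 and 15110 CPM in lenvatinib and 4175, 10230 and 14430 CPM in combo. The mitosis sum was thus lower in combo at each of these 3 steps, and the ratio of S phase to mitosis RNA was 0.987, 0.549 and 0.263 in lenvatinib and 1.17, 0.645 and 0.329 in combo.

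Just outside the rule, in T cells with 3 rule genes, the mitosis sum was 2685 CPM in lenvatinib and 2748 CPM in combo, and both libraries had a ratio of 1.23. Cells just inside it, with exactly 4 genes, held a median of 37 mitosis UMIs and 30.5 S phase UMIs in lenvatinib (median depth 9124 UMIs) and 47.5 and 74 in combo (16381.5 UMIs). With 3 genes the medians were 22 and 13 in lenvatinib and 32 and 36 in combo. The deeper combo cells at 4 genes held more S phase than mitosis UMIs, and the lenvatinib cells fewer.

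**Figure D4:**
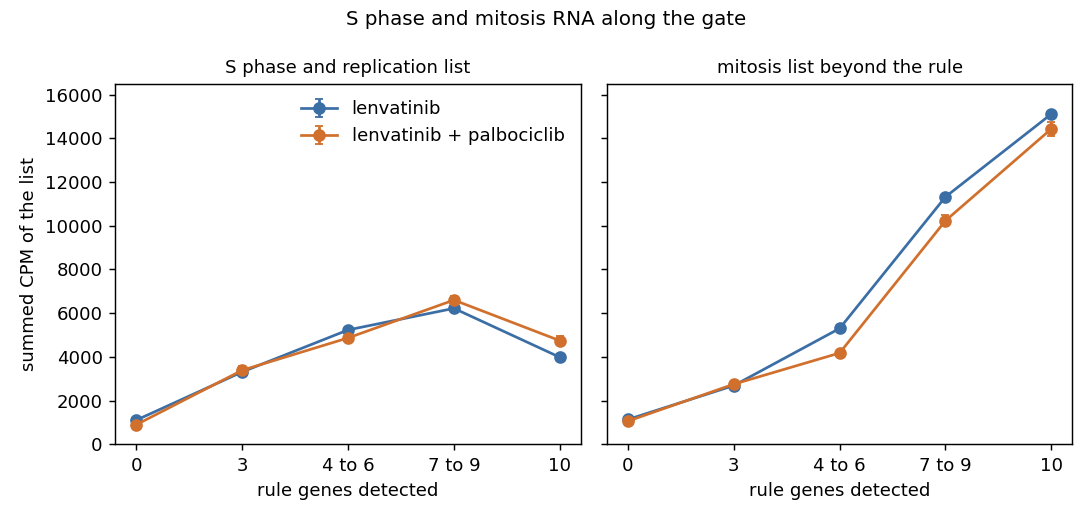
Summed CPM of 33 genes of S phase and DNA replication (left) and 46 mitosis genes outside the rule (right) in T cells with 0, 3, 4 to 6, 7 to 9 and 10 rule genes, without cells of high neutrophil RNA; bars are exact Poisson 95% intervals for counting error, some smaller than the points. Mitosis RNA rises along the axis to 15110 CPM in lenvatinib and 14430 CPM in combo, while S phase RNA peaks at 7 to 9 genes.

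Gene levels within the cycling T cells were then compared between the libraries, as CPM of UMIs summed over cells, counted at the 3′ end of transcripts. Of 5640 genes with a mean of at least 20 CPM over the libraries, 270 (4.79%) were at least 1.5-fold higher and 810 (14.4%) at least 1.5-fold lower in combo, with a median log2 ratio of -0.14. Without the 14 cells of high neutrophil RNA, 270 of 5652 genes (4.78%) were higher and 569 (10.1%) lower, with a median log2 ratio of -0.07. These are the shares against which the counts of each gene list below are read. Counts in Cd8b1+ cycling cells are read against 355 genes higher and 742 lower of 5566. Counts in T cells that were not cycling are read against 91 higher and 524 lower of 5403. With their cells of high neutrophil RNA kept, these were 142 and 589 of 5424. The sum of a list takes in all its genes, also those under 20 CPM. Levels named below are from the 707 cells, levels in other T cells and in Cd8b1+ cells likewise leave out cells past the line of 5%, and counts are added for all 721 cells where they differ.

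Genes of mitosis took a smaller share of the UMIs of cycling T cells in combo. Counted per cell without scaling, the deeper combo cells held a median of 135 UMIs of the 46 further mitosis genes against 142.5 in lenvatinib, and 92 against 61 UMIs of the S phase genes. Of the 10 rule genes, whose presence chose the cells, 4 were at least 1.5-fold lower and none higher over all 721 cells, and 2 were lower without the 14 cells. Their summed level was 3955 CPM in lenvatinib and 2854 CPM in combo, a ratio of 0.722 (0.701 to 0.743). Of 45 further mitosis genes above 20 CPM, 16 were lower and none higher (19 and none over all 721 cells), with a median ratio of 0.738 against 0.954 over all genes. The sum over all 46 was 11370 and 9164 CPM, a ratio of 0.806 (0.793 to 0.819).

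The ratios were uneven among the rule genes. These genes chose the cells, and a deeper cell can meet the rule at a lower CPM. Median depth in the 707 cells was 13428 UMIs in lenvatinib and 16225 UMIs in combo. The ratios below thus only describe the chosen cells, and the part of depth in them was not tested. Mki67, which coats mitotic chromosomes, was at 1005 CPM in lenvatinib and 644.8 CPM in combo, a ratio of 0.642 (0.604 to 0.681). Cenpf, of the outer kinetochore, was at 355 and 186 CPM (0.524, 0.468 to 0.585), and Top2a, which untangles DNA, at 996.9 and 700.5 CPM (0.703, 0.663 to 0.745). Birc5, of the chromosomal passenger complex, was at 431.5 and 413.3 CPM (0.958, 0.886 to 1.04) and the mitotic kinase gene Cdk1 at 162.1 and 152.6 CPM (0.942, 0.827 to 1.07), so that the intervals of both held 1. Ccna2, Ccnb1, Ccnb2, Tpx2 and Nusap1 had ratios of 0.817, 0.787, 0.829, 0.735 and 0.683.

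Some further mitosis genes stood well below equality. Smc4, a condensin subunit, was at 616.3 CPM in lenvatinib and 386.3 CPM in combo (0.627, 0.579 to 0.677) and Ncapd2, another, at 160.5 and 77.9 CPM (0.485, 0.407 to 0.576). Kif11, the motor that pushes spindle poles apart, was at 266.0 and 141.5 CPM (0.532, 0.467 to 0.604), and Aspm, a spindle pole gene, at 120.7 and 62.5 CPM (0.518, 0.424 to 0.627). The phosphatase gene Cdc25c, which starts mitosis, was at 17.8 and 6.89 CPM on 156 and 13 UMIs, and Pimreg at 39.9 and 21.7 CPM. The most abundant genes of the list differed less, with Hmgb2, a chromatin protein gene, at 4509 and 3978 CPM (0.882), the tubulin gene Tubb4b at 451.1 and 482.7 CPM (1.07) and the CDK subunit gene Cks2 at 389.1 and 404.8 CPM (1.04).

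Genes of S phase and DNA replication did not share the lower level. Of 32 such genes above 20 CPM, 2 were at least 1.5-fold higher and none lower, with and without the 14 cells. The sum over all 33 genes of the list was 5196 CPM in lenvatinib and 5477 CPM in combo, a ratio of 1.05 (1.03 to 1.08). Over all 721 cells the ratio was 0.962 (0.942 to 0.983), so its direction turned with 14 cells and, over all 721, with the scaling used. The 2 higher genes were Gins2, of the replicative helicase, at 28.6 and 54.1 CPM (1.89, 1.49 to 2.39), and Ung, which removes uracil from DNA, at 27.0 and 46.1 CPM (1.71, 1.32 to 2.19). Thymidylate synthase gene Tyms was at 148.2 and 212.5 CPM (1.43) and the helicase genes Mcm3 and Mcm6 had ratios of 1.45 and 1.35.

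The most abundant S phase genes lay near 1. Pclaf, which binds the sliding clamp, was at 708.9 and 759.3 CPM (1.07), Dut, which keeps uracil out of DNA, at 414.9 and 519.3 CPM (1.25) and the histone mRNA binding gene Slbp at 285.8 and 259.6 CPM (0.908). Pcna, the clamp itself, was at 601.6 and 536.7 CPM (0.892, 0.833 to 0.954), and Rrm2, of ribonucleotide reductase, at 192.1 and 177.5 CPM (0.924, 0.819 to 1.04). In the T cells that were not cycling the sum of the list was 1319 CPM in lenvatinib and 1038 CPM in combo, a ratio of 0.788.

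Of the pathway that palbociclib acts on, the kinase and D-type cyclin genes were level or higher in the cycling cells of combo. Cdk4 was at 115.2 CPM in lenvatinib and 160.0 CPM in combo (1.39, 1.22 to 1.58) and Cdk6 at 108.3 and 128.2 CPM (1.18, 1.02 to 1.36), but Cdk6 was at 109.7 and 101.9 CPM in Cd8b1+ cycling cells (0.929, 0.747 to 1.14). The D-type cyclin genes Ccnd2 and Ccnd3 were at 233.2 and 264.9 CPM (1.14) and at 148.2 and 188.6 CPM (1.27). Ccnd1, at 8.54 and 25.4 CPM on 75 and 48 UMIs, had a ratio of 2.98 (2.03 to 4.34), with 26.7% and 18.8% of those UMIs in 1 cell each. Rb1, the gene of RB, was at 42.0 and 47.2 CPM, and E2f1 at 31.8 and 44.5 CPM (1.40, 1.08 to 1.79).

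Of the genes of CDK inhibitors, Cdkn1b and Cdkn2c were lower. Cdkn1b, the gene of p27, was at 110.5 CPM in lenvatinib and 63.0 CPM in combo (0.571, 0.468 to 0.691), and Cdkn2c, the gene of p18, at 73.9 and 40.3 CPM (0.545, 0.424 to 0.692). The related Cdkn2d was at 119.6 and 113.4 CPM (0.948, and 1.14 over all 721 cells). In T cells that were not cycling Cdkn1b was at 168 and 152.5 CPM, a ratio of 0.908. Of the 20 genes of the list above 20 CPM, none was higher and 2 were lower (5 lower over all 721 cells, adding Rbl1, Rbl2 and E2f7). The sum over all 25 genes of the list had a ratio of 1.01 (0.970 to 1.05), or 0.973 (0.937 to 1.01) over all 721 cells.

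**Figure D5:**
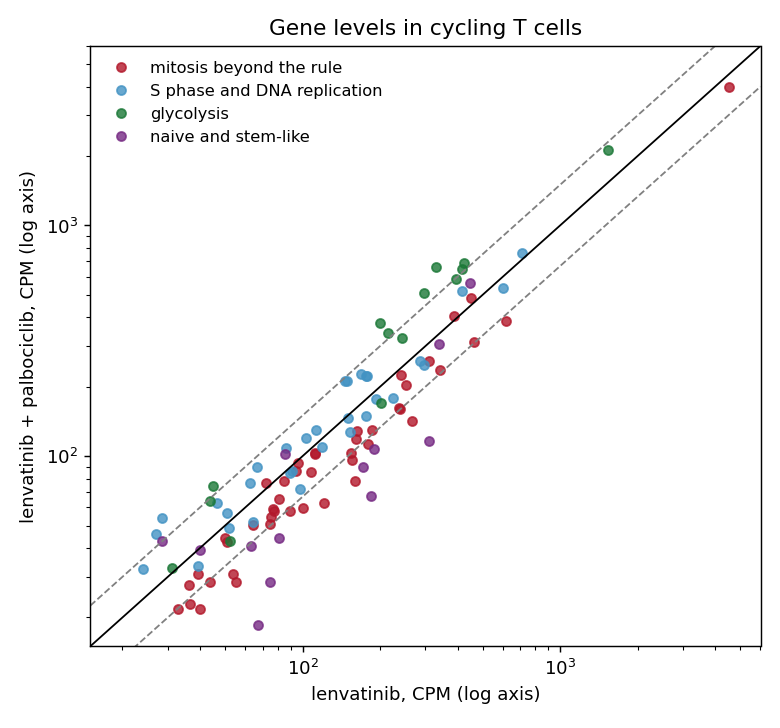
Level of each gene of 4 lists in cycling T cells of lenvatinib (x axis) and combo (y axis), in CPM on log axes, for genes with a mean of at least 20 CPM and without cells of high neutrophil RNA; the solid line is equality and the dashed lines are 1.5-fold. Most mitosis genes (red) lie below the solid line with 16 past the lower dashed line, 8 of 13 naive and stem-like genes (purple) lie past it, and 7 of 14 glycolysis genes (green) lie past the upper one.

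Genes of naive and stem-like T cells were lower in the cycling cells of combo. Of 13 above 20 CPM, 8 were at least 1.5-fold lower and 1 higher (8 and none over all 721 cells), and the median ratio was 0.563. The sum was 2099 CPM in lenvatinib and 1575 CPM in combo, a ratio of 0.750 (0.721 to 0.780). In T cells that were not cycling 2 of 14 were lower and 2 higher, with a ratio of the sums of 0.970, and with the cells of high neutrophil RNA kept 3 were lower and none higher (0.945).

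Satb1, a chromatin organizer of early T cells, was at 308.6 CPM in lenvatinib and 116.0 CPM in combo (0.376, 0.326 to 0.432). Tcf7, the transcription factor gene of stem-like T cells, was at 190.1 and 107.0 CPM (0.563, 0.484 to 0.652), and its relative Lef1 at 81.2 and 44.0 CPM (0.542, 0.426 to 0.681). The chemokine receptor gene Ccr7 was at 74.6 and 28.6 CPM (0.384, 0.285 to 0.507). Dapl1, at 67.4 and 18.6 CPM (0.275), had 37.1% of its combo UMIs in 1 cell. In the other T cells Ccr7, Lef1 and Dapl1 had ratios of 0.973, 0.959 and 0.984, and Satb1 and Tcf7 of 0.566 and 0.698.

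The rest of the list was divided. Foxp1 and S1pr1, which keep T cells quiescent and let them leave tissue, had ratios of 0.525 and 0.647, and the quiescence gene Bach2 was at 16.7 and 6.36 CPM (0.380). Slamf6, a receptor of stem-like cells, was higher, at 28.4 and 42.9 CPM (1.51, 1.16 to 1.95, and 1.33 over all 721 cells), and Klf2, a regulator of trafficking, was at 448.0 and 565.9 CPM (1.26, 1.18 to 1.35). Within Cd8b1+ cycling cells alone 9 of 13 genes were lower and 1 higher, and the sum had a ratio of 0.667 (0.633 to 0.702), so the lower level was also measured within this subset.

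Glycolysis genes were higher in combo. Of 14 genes, 7 were at least 1.5-fold higher and none lower, with and without the 14 cells, and the median ratio was 1.52. The sum was 4423 CPM in lenvatinib and 6646 CPM in combo, a ratio of 1.502 (1.47 to 1.53). Aldoa, which splits fructose bisphosphate, was at 330.1 and 662.3 CPM (2.01, 1.88 to 2.14), Tpi1 at 200.1 and 376.2 CPM (1.88, 1.72 to 2.05) and Pgk1, which makes ATP, at 297.3 and 509.7 CPM (1.71, 1.59 to 1.85). Pkm and Ldha, of the last steps to lactate, were at 423.3 and 690.9 CPM (1.63) and at 417.7 and 645.9 CPM (1.55), and Gapdh was at 1528 and 2120 CPM (1.39).

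The same list was also higher in the combo T cells that were not cycling, where 2 of 14 genes passed 1.5-fold and the sums of 3215 and 4443 CPM had a ratio of 1.38 (1.37 to 1.39). In Cd8b1+ cycling cells 10 of 14 passed it and the ratio was 1.64 (1.597 to 1.68). Genes of the nucleolus and targets of MYC, which build ribosomes in growing cells, lay near equality, with none of 17 past 1.5-fold in either direction. Npm1, of the nucleolus, was at 1458 and 1571 CPM (1.08, and 0.959 over all 721 cells). Of 14 genes of activation and nutrient uptake, 1 was higher and 3 lower (none and 3 over all 721 cells), among them Myc at 85.9 and 49.8 CPM (0.580, 0.463 to 0.720) and the amino acid carrier gene Slc7a5 at 29.8 and 15.9 CPM (0.533), while the cytokine gene Mif was at 631.7 and 847.2 CPM (1.34).

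Cytotoxic genes were mixed, and some rested on single cells. Of 20 above 20 CPM, 3 were higher and 2 lower (2 and 3 over all 721 cells), and the sum had a ratio of 1.11 (1.09 to 1.13). Gzmb, the main granzyme of killer cells, was at 419.5 CPM in lenvatinib and 735.4 CPM in combo (1.75, 1.65 to 1.86), at 288.1 and 757.8 CPM in Cd8b1+ cycling cells (2.63, 2.41 to 2.87), and at 320.1 and 742.2 CPM in other T cells (2.32). The chemokine genes Ccl5 and Xcl1 were at 2218 and 2844 CPM (1.28) and at 608.2 and 749.8 CPM (1.23), and the granule gene Nkg7 at 1005 and 1017 CPM (1.01, and 0.918 over all 721 cells). Eomes, a transcription factor of memory and NK cells, was lower, at 120.7 and 51.4 CPM (0.426, 0.342 to 0.524).

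Gzma was at 905.4 and 325.9 CPM (0.360, 0.331 to 0.391), but 53.2% of its combo UMIs came from 1 cell and the ratio was 1.46 among cells without an Ncr1 UMI. Gzmc was at 40.8 and 373.6 CPM (9.16), with 85.8% of its combo UMIs in 1 cell, and its ratio was 0.637 in Cd8b1+ cells. For both genes the direction therefore depended on which cells were taken. The perforin gene Prf1 was at 71.8 and 55.1 CPM (0.768) and the interferon gene Ifng at 189.8 and 145.2 CPM (0.765).

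Checkpoint genes went both ways. Of 9 above 20 CPM, 3 were higher and 2 lower (2 and 2 of 8 over all 721 cells). Ctla4, an inhibitory receptor gene, was at 74.7 CPM in lenvatinib and 164.8 CPM in combo (2.21, 1.92 to 2.53), and Cd160, another, at 91.6 and 159.0 CPM (1.74, 1.52 to 1.98). Pdcd1, the gene of PD-1, was at 24.5 and 38.7 CPM (1.58, 1.19 to 2.07, and 1.39 over all 721 cells). Tox, the transcription factor gene of exhausted T cells, was lower, at 150.9 and 78.9 CPM (0.523, 0.439 to 0.620), as was Nr4a2, induced by receptor signalling, at 211.8 and 137.8 CPM (0.650).

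In Cd8b1+ cycling cells 4 of 10 checkpoint genes above 20 CPM were higher and 1 lower, and the sum had a ratio of 1.265 (1.175 to 1.36). The lower gene was Tox, so Nr4a2 was not counted as lower there. Ctla4, Cd160, Pdcd1 and Tox pointed the same ways as in all cycling cells. Ctla4 was at 69.1 and 176.6 CPM (2.56, 2.13 to 3.06), Cd160 at 73.9 and 179.5 CPM (2.43), Pdcd1 at 25.5 and 54.3 CPM (2.13, 1.53 to 2.93) and Tox at 153.3 and 89.3 CPM (0.582). The other T cells had ratios of 1.39 for Ctla4, 1.11 for Cd160, 1.86 for Pdcd1 and 0.681 for Tox. Of 9 genes of regulatory T cells, which include Ctla4, 3 were higher and 1 lower (2 and 1 over all 721 cells). The lower one was Ikzf2, at 259.1 and 126.1 CPM (0.487, 0.424 to 0.556), while the costimulator gene Icos and the actin gene Capg had ratios of 1.596 and 1.52.

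Of 6 γδ genes above 20 CPM, 2 were higher and 2 lower (none and 2 over all 721 cells), with a median ratio of 1.07. In Cd8b1+ cells 3 of 4 were higher and 1 lower. Trdc, the constant gene of the δ chain, was at 76.2 CPM in lenvatinib and 32.3 CPM in combo (0.424), with 54.1% of the 61 combo UMIs in 1 cell. Of these 61 UMIs, 43 were in Cd8b1+ and 18 in Trdc+ cells, so that cell was a Cd8b1+ cell. Within Cd8b1+ cells Trdc went the other way, at 13.6 CPM in lenvatinib and 41.7 CPM in combo. Cd163l1, a scavenger receptor gene of γδ cells that make IL-17, had 174 UMIs in lenvatinib and 1 in combo, a ratio of 0.0267 with an interval of 0.000673 to 0.151, and Blk had 89 and 1. The γ chain gene Tcrg-C2 was at 62.9 and 94.3 CPM. Of 9 NK genes 5 were lower, and the sum of all 9 was 1302 and 947.4 CPM (ratio 0.728, but 1.05 among cells without an Ncr1 UMI), among them the Ly49 receptor gene Klra8 at 64.8 and 10.1 CPM (0.155, 0.0928 to 0.245), with 63.2% of 19 combo UMIs in 1 cell.

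Markers of other cell types were read from lists. The summed levels were 424.8 CPM in lenvatinib and 6.89 CPM in combo for 5 erythroid genes, 2.39 and 130.9 CPM for 4 mast cell and basophil genes, 69.9 and 102.3 CPM for 4 plasma cell genes, 97.6 and 62.0 CPM for 4 genes of type 2 innate lymphoid cells, and 65.8 and 214.6 CPM for 9 monocyte and macrophage genes. In lenvatinib 98.2% of the UMIs of the hemoglobin gene Hbb-bs were in 1 cell, as were all UMIs of the mast cell gene Cpa3 in combo. For 5 neutrophil progenitor genes the sums were 161.6 and 210.4 CPM, but 340.3 and 202.6 CPM over all 721 cells. In Cd8b1+ cycling cells they were 13.8 and 306.6 CPM. There 99.3% of the 141 combo UMIs of Ctsg, a gene of this list, were in 1 cell. None of the 6 B cell, 6 dendritic cell, 4 thymocyte and 6 hepatocyte genes reached a mean of 20 CPM. Their sums were 11.8 and 16.4 CPM for B cells, 21.5 and 12.7 CPM for dendritic cells, 1.37 and 7.42 CPM for thymocytes and 9.11 and 5.30 CPM for hepatocytes. The recombinase genes Rag1 and Rag2, which define thymocytes that rearrange their receptors, had no UMI among the 8895969 and 2196534 UMIs of the cells, which allows up to 0.415 and 1.68 CPM. Csf1r is absent by the rule. Of the 9 monocyte and macrophage genes, Lyz2, which neutrophils also express, was at 55.5 and 1624 CPM over all 721 cells, and C1qa, a macrophage gene, at 3.26 and 0.455 CPM. The T cell genes were within 1.5-fold in all 6 cases, with Cd3e, the gene of CD3 epsilon, at 314.9 and 316.9 CPM (1.01, 0.920 to 1.10, and 0.893 over all 721 cells).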

How the data were processed

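The authors deposited raw counts, UMIs per gene and cell barcode, 1 matrix per library for 32285 genes. Per the labels, reads were processed with Cell Ranger 5.0.1 on mm10, whereas the matrix headers name 6.0.1. The deposited counts were used without normalization. The cells and the gene lists were chosen with earlier results of these data known, and the line of 5% for neutrophil RNA and the gates for other cell types were drawn after the values were seen. Cells passed at most 6000 genes and 25% mitochondrial UMIs. Counts were summed over cells and scaled to CPM, and ratios were given for genes with a mean of at least 20 CPM, at a fold of 1.5. No model or test was fitted, since there was 1 library per condition. Intervals are exact at 95% (Clopper-Pearson for shares, Poisson for counts, conditional for ratios of counts) and cover counting error only. The precision is set by 606 and 115 cells with 8895969 and 2196534 UMIs.

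Cells were thinned without replacement to 2000 or 4000 UMIs. Scrublet (scanpy 1.11.5, expected rate 6%) called 4.46% and 2.76% of the cells doublets, which were removed only in an alternative. Named genes were the 10 rule genes and Cd3e, the 4 highest of each list and those past 2-fold with an interval that leaves out 1, the 8 largest and 8 smallest ratios at 100 UMIs or more, and the 10 genes outside the division lists highest over other T cells at 50 CPM or more. Some genes that this rule names are not reported here. Any other gene named, such as Slamf6, Pdcd1 or Il7r, was picked after its values were seen. Of the listed genes, 1 was not found under its symbol. Python 3.11.15, numpy 2.4.6, scipy 1.17.1 and pandas 2.3.3 were used. On simulated data with 200 of 5678 genes set to 2-fold, 98.5% were recovered past 1.5-fold, 0.310% of the others passed, and 95.7% of the intervals held the true ratio. The simulated UMIs were drawn from the pooled profile of the cycling T cells, without differences between cells or mice. These values therefore cover counting error only and do not give the error of the gene counts above. Promoters were RefSeq sequence of GRCm38.p6. Alternatives varied the filter, gates, depth, doublets, CPM total, weighting of cells, CPM minimum and fold, and leaving out cells with neutrophil RNA or Ncr1, the latter chosen after seeing the data.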

Additional observations from a re-analysis of the deposited data

Results flagged for a closer look

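Among the barcodes that the filter removed, 19 of lenvatinib and 14 of combo met the T cell and cycling gates. They stand outside every comparison above, and were picked out by their number in each library alone. Of these, 17 and 14 held more than 6000 genes and 2 and 0 more than 25% mitochondrial UMIs. With all removed barcodes put back, the cycling share of T cells was 8.76% and 2.46%, a ratio of 0.281.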

How the results depend on the processing

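The ratio of the cycling share (0.258) stayed below 1 under 18 alternatives, from 0.1763 (7.20% and 1.27%, without T cells holding 2 or more markers of other cell types) to 0.3067. Within subsets it stayed below 1 under all 6 alternatives each, except Foxp3+ (0.2478 to 1.028). The S phase gate over all T cells (0.486) gave 0.5626 with 3 genes, 0.4141 with 6, and 0.3296 and 0.3744 thinned to 2000 and 4000 UMIs. Thinned to these depths, Cd8b1+ cells were 37.61% and 50.44% of lenvatinib and 32.17% and 44.25% of combo cycling cells. Past 1.5-fold, 270 genes were higher and 810 lower. With mitochondrial, ribosomal, hemoglobin and neutrophil genes left out of the total, 480 were higher, and the lower count is not reported here. At 5 CPM 664 and 1542 passed, at 100 CPM 59 and 165, and at 2-fold 118 and 128. The CPM minimum sets how many genes are read, so the counts at 5 and 100 CPM cannot be compared with 270 and 810. For the summed rule, mitosis, S phase, naive and glycolysis genes, the ratios were 0.6825, 0.8017, 0.9623, 0.7161 and 1.468 over all cells. They were 0.7265, 0.8534, 1.024, 0.7622 and 1.563 with that other total, and 0.7119, 0.8196, 1.049, 0.7628 and 1.554 as means of single cells. In Cd8b1+ cells alone the rule, mitosis, naive and glycolysis sums gave 0.7138, 0.816, 0.6592 and 1.613. With at least 6 rule genes the rule, mitosis, S phase and naive sums gave 0.7331, 0.8493, 1.029 and 0.6808. Without neutrophil-RNA cells, chosen after seeing the data, the rule, S phase, naive and glycolysis sums gave 0.7216, 1.054, 0.7501 and 1.502, and also without Ncr1 the rule and glycolysis sums gave 0.7047 and 1.557. The S phase sum thus turned direction under 4 of these, and the cause was not tested. Single genes turned as follows: in Cd8b1+ cells Elane 1.551, Gzmc 0.5849, Mpo 12.04, Prtn3 13.82, Rsad2 0.4969 and Trdc 2.779; with 6 rule genes Cpa3 0, Ctsg 0.06906 and Ms4a3 0.6315; without neutrophil-RNA cells Prtn3 1.246; and also without Ncr1 Elane 1.73, Gzma 1.461, Klra4 1.618, Mpo 11.52 and Prtn3 27.61. Of the other gene values, 527 kept within their interval and 151 moved. No paired analysis was possible because there was 1 library per condition and no result came from a test. The number of cells limits the Foxp3+ and Trdc+ subsets of combo, with 2 and 5 cells.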

Other observations

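Interferon-stimulated genes were lower in the cycling T cells of combo as a sum, at 1638 CPM in lenvatinib and 1265 CPM in combo without the cells of high neutrophil RNA (0.772, 0.739 to 0.807). Of 15 genes above 20 CPM, 2 were at least 1.5-fold lower and 2 higher (6 and 2 over all 721 cells). Ifi27l2a, the most abundant, was at 599.6 and 414.9 CPM (0.692), and Ifi203, a DNA sensor family gene, at 222.9 and 160.5 CPM (0.720). The 2 higher genes were Ifit1 and Rsad2, both antiviral, with 63.0% and 47.1% of their combo UMIs in 1 cell. In T cells that were not cycling the list had 9 of 17 genes lower and a ratio of the sums of 0.637. Of 6 p53 target genes 1 was higher and 2 lower (none and 2 over all 721 cells). The CDK inhibitor gene Cdkn1a was at 64.0 and 74.7 CPM (1.17, 0.963 to 1.41), Bax at 129.5 and 152.6 CPM (1.18) and Pmaip1, a death gene, at 28.7 and 48.8 CPM (1.70), while Trp53inp1 was at 63.0 and 39.2 CPM (0.623) and Ccng1 at 56.5 and 37.1 CPM (0.657).

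Several of the most unequal genes came from single cells. Hba-a1, a hemoglobin gene, had 1058 UMIs in lenvatinib, 98.6% of them in 1 cell, and none in combo, and the other hemoglobin genes Hba-a2, Hbb-bs and Hbb-bt had 98.8%, 98.2% and 99.4% of theirs in 1 cell. All 153 combo UMIs of the mast cell protease gene Cpa3 were in 1 cell, against 9 UMIs in lenvatinib, and 93.6% of the 314 combo UMIs of the chemokine gene Ccl1 were in 1 cell. By contrast, Ifitm1 and Ifitm2, which restrict viruses, were spread over more cells, at 12.3 and 199.2 CPM (16.2, 13.0 to 20.2) and at 25.3 and 232.1 CPM (9.18, 7.79 to 10.8), with 21.5% and 11.6% of their combo UMIs in 1 cell. Both were also higher in the combo T cells that were not cycling, at 22.56 and 122.1 CPM (5.41) and at 33.65 and 126.3 CPM (3.75). Over all 721 cells the largest ratios were those of Olfm4 (1 and 289 UMIs), Cstdc5 (1 and 172), Cpa3, Orm1, Chil1, Retnlg, Ccl1 and Lrg1. Of these, Retnlg, a neutrophil gene, still had a ratio of 16.8 without the cells of high neutrophil RNA, next to Chil3 at 11.7 and Hp at 10.4. Over all 721 cells 77.2% of the combo UMIs of Olfm4 and 66.3% of those of Cstdc5 were in 1 cell. For Orm1, Chil1, Retnlg and Lrg1 this share was 19.2%, 16.7%, 32.2% and 18.0%. Among the smallest, Siglech had 104 and 1 UMIs and Arap3 99 and 3, with ratios of 0.0447 (0.00112 to 0.255) and 0.141 (0.0286 to 0.424). Over all 721 cells Elane had 1008 and 14 UMIs, Penk 99 and 2 and 9630013D21Rik 103 and 4. In lenvatinib 1 cell held 62.6% of the Elane UMIs, 69.7% of the Penk UMIs and 3.88% of the 9630013D21Rik UMIs.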
